A study of Mus musculus with 12 samples.

Results

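The regulators and markers of fat cell formation examined here were Pparg, Cebpa, Cebpb, Cebpd, Fabp4, Cd36, Lpl, Adipoq and Cfd. Every probe set (a group of oligonucleotide probes read together as 1 signal) that the array's annotation assigned to 1 of these 9 gene symbols was taken, which gave 16 of the 22626 probe sets tested, for 8 of the 9 genes. Cfd was not analysed here. The 12 arrays came from mouse embryonic fibroblasts (MEFs, primary connective tissue cells), labelled as C57BL/6 and all carrying a lentivirus for M2rtTA, the transactivator through which doxycycline turns on the delivered genes. TF group 1 received viruses for GATA4, TBX5 and MEF2C. TF group 2 received these 3 together with Mesp1 and SMARCD3, 5 in all. TF group 3 received MYOCD and SRF besides these 5, and so 7 factors. The negative control carried M2rtTA and none of the factors. All 4 groups, the negative control included, were kept for 7 days with doxycycline in fibroblast medium with added serum and valproic acid, which inhibits histone deacetylases. The study addressed how far added factors push fibroblasts toward a heart muscle state, and the fat genes served here as a readout of another mesenchymal fate. Each group had 3 arrays, labelled as biological replicates, and whether these were separate isolations of fibroblasts is not stated, so the p-values measure the spread between these arrays. The delivered cDNAs were human except for mouse Mesp1, and none of them is a gene examined here. RNA was taken from whole cultures, so a smaller number of cells that express a gene and less RNA of it per cell cannot be told apart.

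Fat cells form from mesenchymal precursors through a cascade of transcription factors. C/EBPβ and C/EBPδ, the products of Cebpb and Cebpd, act early and lead to the induction of Pparg and Cebpa. PPARγ, a nuclear receptor that binds DNA together with RXR, and C/EBPα then maintain each other and turn on the genes of lipid uptake, binding and storage. Fibroblasts from mouse embryos can enter this program under adipogenic hormones, and Pparg, Fabp4, Cd36 and Lpl are also used outside fat, among others in macrophages, endothelium and heart muscle.

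The deposited value was a linear signal per probe set, and every array had the same mean of 500 once the top and bottom 2% of its probe sets were set aside. Signals were taken to log2 and fitted with limma over all 12 arrays. A call, higher or lower, required a fold change over 1.5 and an adjusted p under 0.05 (Benjamini-Hochberg, over the 22626 probe sets). A signal of 32 (5 on the log2 scale) was used as a floor, since the median SD between replicates was 0.90 on the log2 scale for probe sets with a mean below it, against 0.06 for the brightest ones. Of the 16 probe sets, 12 had a mean signal of at least 32 in at least 1 group. The 3 comparisons with the negative control share the same 3 arrays of that group. Poly-A spikes, bacterial RNAs added to the sample before amplification, were brighter on the TF arrays (8.03 to 8.28 on the log2 scale) than on the negative control arrays (6.99 to 7.79). Scaling the arrays to these spikes shifted the whole array, with a median log2 change of -0.84, -0.69 and -0.74 in TF groups 1, 2 and 3, so directions are given below as deposited, with the spike-scaled value beside those of the 8 genes that turned or changed their call. Under this scaling 56.9%, 47.8% and 50.6% of all probe sets were called in TF groups 1, 2 and 3 against the negative control, and 10 of the 16 in each. Which scaling is closer to the RNA per cell was not tested.

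Against the negative control, Pparg and 2 of 4 probe sets of Fabp4 fell in all 3 TF groups and Lpl rose in TF groups 2 and 3, while no probe set of Cebpa, Cebpb, Cebpd, Cd36 or Adipoq was called. In TF group 1, 3 of the 16 probe sets were called lower and none higher (18.8% called, against 22.7% of all probe sets, of which 9.06% were lower and 13.6% higher). In TF group 2, 3 were lower and 2 higher (31.2%, against 23.7% of all, 9.98% lower and 13.7% higher). TF group 3 had the same counts (31.2%, against 23% of all, 9.36% lower and 13.6% higher). The shares called thus lay on both sides of the background. The counts were the same at an unadjusted p under 0.05 with the same fold and in an unmoderated linear model per probe set. Among the 4 groups, 8 of the 16 passed the moderated F test of limma, against 45.4% of all probe sets. The plot of the log2 changes shows the 12 brighter probe sets.

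**Figure D1:**
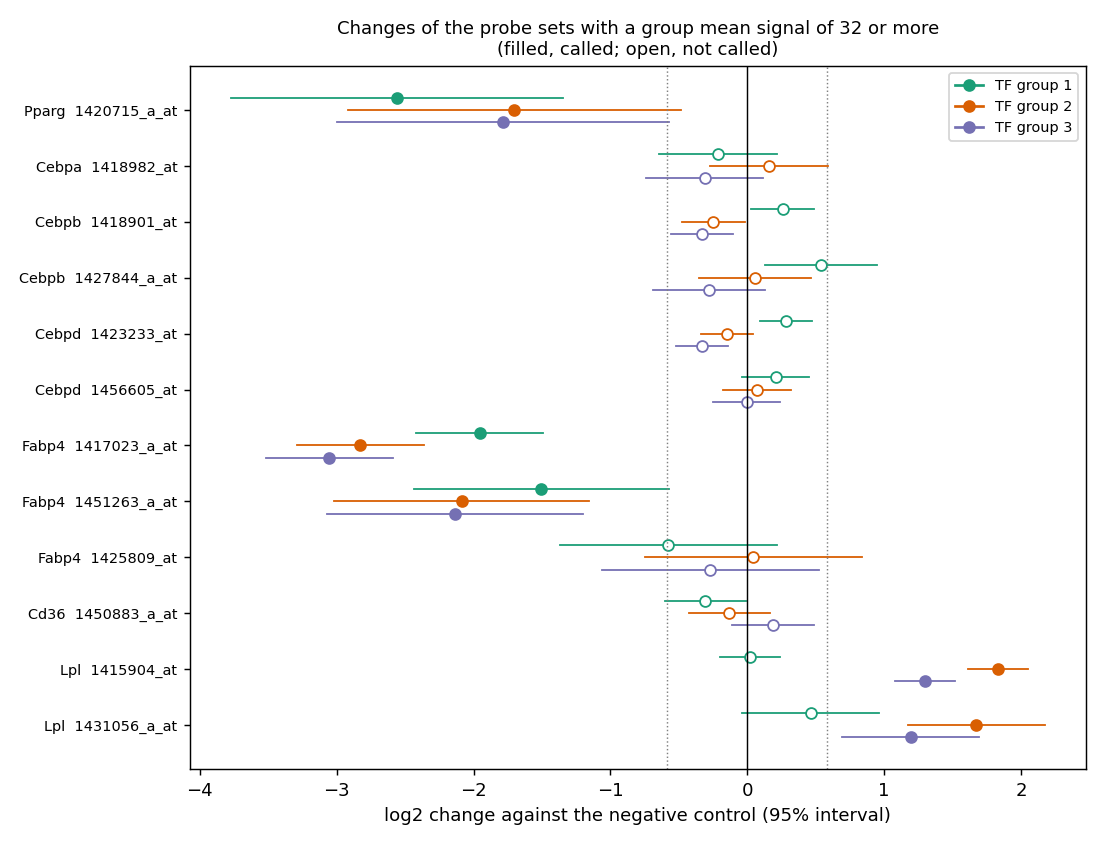
Log2 change of signal in TF groups 1, 2 and 3 against the negative control for the 12 probe sets with a mean signal of at least 32 in a group, with 95% confidence intervals from limma; filled points were called and dotted lines mark a fold change of 1.5. The Pparg probe set and 2 Fabp4 probe sets lie to the left in every TF group, both Lpl probe sets lie to the right in TF groups 2 and 3, and those of Cebpa, Cebpb, Cebpd and Cd36 lie near 0.

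Pparg encodes the receptor at the centre of the fat program. Its single probe set had signals of 25.2, 5.1 and 23.6 in TF group 1, 23.8, 19.8 and 38.5 in TF group 2, and 30.2, 22.3 and 22.8 on the TF group 3 arrays, against 90.4, 80.2 and 86.5 in the negative control. All 9 TF arrays lay below the 3 negative control arrays, and 8 of the 9 lay below the floor of 32. The log2 changes were -2.56, -1.70 and -1.78 in TF groups 1, 2 and 3 (SE 0.54, limma adjusted p = 0.00402, 0.0305 and 0.0253). Set against the floor, Pparg was at least 2.68-fold lower in each TF group. The low value of replicate 2 of TF group 1 widened the spread, and without that array the log2 change in TF group 1 was -1.81 (limma adjusted p = 0.000771). The call in TF group 2 held only without its replicate 3, and that in TF group 3 only without its replicate 1, among 6 fits each that left out 1 array, and in the other 5 of each the calls were lost, with log2 changes of -1.50 to -1.83 and limma adjusted p-values of 0.0543 to 0.0972. Between TF groups no order of Pparg can be given, because their means all lay below the floor.

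RefSeq places 3 Pparg transcript starts in the promoter table, each with a window from 250 bases before to 50 bases after the start. They are printed because Pparg was lower in every TF group and the windows can be read for the motif of C/EBP proteins, which are regulators examined here, and that of T-box proteins, the family of the delivered TBX5. Capitals mark matches to TTGCNNAA (C/EBP) and AGGTGTGA (T-box) on either strand.
Pparg window 2, chr6:115362099-115362398, plus strand, GRCm38.p6: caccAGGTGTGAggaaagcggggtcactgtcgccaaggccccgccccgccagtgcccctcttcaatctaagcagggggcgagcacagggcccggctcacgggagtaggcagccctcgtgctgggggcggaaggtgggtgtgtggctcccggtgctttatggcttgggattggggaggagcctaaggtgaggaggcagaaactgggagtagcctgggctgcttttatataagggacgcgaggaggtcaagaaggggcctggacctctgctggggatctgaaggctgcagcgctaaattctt
Pparg window 3, chr6:115421816-115422115, plus strand, GRCm38.p6: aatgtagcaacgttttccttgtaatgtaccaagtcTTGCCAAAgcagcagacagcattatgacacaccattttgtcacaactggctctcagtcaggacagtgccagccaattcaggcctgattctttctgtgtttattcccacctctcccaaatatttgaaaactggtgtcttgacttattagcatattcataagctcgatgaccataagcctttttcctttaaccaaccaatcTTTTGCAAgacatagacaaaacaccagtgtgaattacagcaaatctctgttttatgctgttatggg
Window 2 holds 1 T-box match, at bases 5 to 12, and window 3 holds 2 C/EBP matches, at bases 36 to 43 and 235 to 242 counted from the left end. Window 1, chr6:115360894-115361193 on the plus strand, holds neither and is not printed. Of all 32841 windows of this length in the table, 10.8% hold the C/EBP letters and 1.28% the T-box letters. No window of Pparg, Cebpa, Cebpb, Cd36 or Adipoq, the 5 genes with a window, held AGATAA (bound by factors of the GATA family, 11.2% of all windows), CTA and TAG with 4 bases between (MEF2, 3.69%), the CArG box (SRF, 1.63%) or AGGTCA repeated after 1 base (PPAR with RXR, 0.0396%). A match is a run of letters and not a binding site, and binding was not measured.

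Cebpa encodes C/EBPα, the partner of PPARγ in the late phase. Its signals were 117.8, 81.8 and 100.4 in TF group 1, 139.2, 120.9 and 124.8 in TF group 2, and 94.8, 91.1 and 91.8 on the TF group 3 arrays, against 103.7, 156.4 and 93.2 in the negative control. Each TF group overlapped the negative control, whose replicate 2 was the highest of the 12 arrays. The log2 changes were -0.21, 0.16 and -0.31 (SE 0.19), and none was called (limma adjusted p = 0.424, 0.566 and 0.240). The 95% interval of the change ran from -0.64 to 0.21 in TF group 1, from -0.27 to 0.59 in TF group 2 and from -0.74 to 0.12 in TF group 3. With the arrays scaled to the poly-A spikes, Cebpa was called lower in TF groups 1 and 3 (-1.11 and -1.10), and its change in TF group 2 turned to -0.58, not called.

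**Figure D2:**
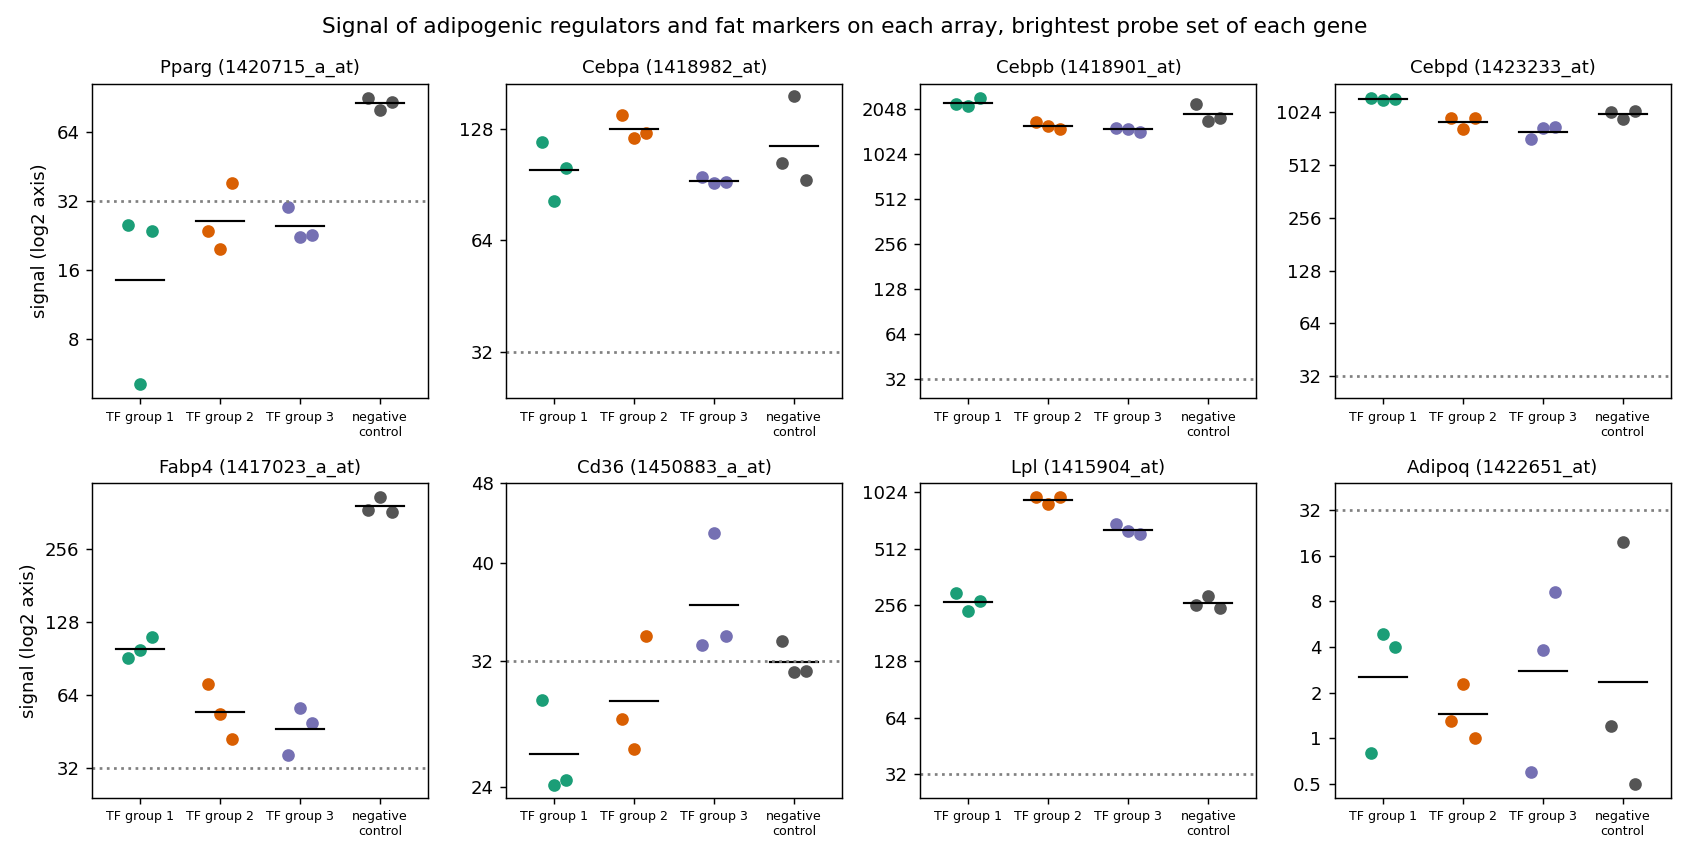
Signal on each of the 12 arrays (points, log2 axis; 3 arrays per group; black lines, mean on the log2 scale) for the brightest probe set of each of the 8 measured genes, with a dotted line at the floor of 32. Pparg and Fabp4 lie highest in the negative control, Lpl lies highest in TF group 2, Cebpb and Cebpd lie highest in TF group 1 on most arrays, and Adipoq stays below 32 throughout.

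Cebpb and Cebpd encode the early regulators. At its brighter probe set, Cebpb had signals of 2194.8, 2117.8 and 2423.7 in TF group 1, 1678.1, 1558.2 and 1494.5 in TF group 2, and 1521.5, 1510.1 and 1436.3 on the TF group 3 arrays, against 2191.6, 1699.7 and 1762.7 in the negative control. TF group 1 overlapped the negative control, and TF groups 2 and 3 lay just below it on every array. The log2 changes were 0.26, -0.25 and -0.33 (SE 0.10), none past the fold of 1.5, and with the arrays scaled to the poly-A spikes all 3 were called lower (-0.64, -0.99 and -1.12). The dimmer probe set had log2 changes of 0.54, 0.06 and -0.28 (SE 0.18), the TF group 1 value passing the p threshold but not the fold (limma adjusted p = 0.0395). It was called higher in TF group 1 without replicate 1 of the negative control (0.73), and scaled to the spikes it was called lower in TF groups 2 and 3 (-0.68 and -1.08), while that of TF group 1 turned to -0.36, not called. Across the 12 arrays, both Cebpb probe sets correlated at r = 0.882, a description that includes the group differences.

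Between TF groups, Cebpb of TF group 3 lay below that of TF group 1 at both probe sets. The log2 changes were -0.59 at the brighter (SE 0.10, limma adjusted p = 0.00467) and -0.82 at the dimmer (SE 0.18, limma adjusted p = 0.0159). The change at the brighter one lies just past the fold of 1.5 and was not called with 32 added to each signal (-0.58), with arrays centred on their median (-0.57) or scaled to the spikes (-0.49). Both calls were also lost without replicate 3 of TF group 3 (-0.57 and -0.76) and without replicate 3 of TF group 1 (-0.53 and -0.77). TF group 2 lay below TF group 1 as well at the brighter probe set, by a log2 change of -0.51 (limma adjusted p = 0.0170) that did not reach the fold threshold.

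Cebpd, at its brighter probe set, had signals of 1241.7, 1200.3 and 1211.7 in TF group 1, 945.1, 825.1 and 947.3 in TF group 2, and 717.4, 829.9 and 844.5 on the TF group 3 arrays, against 1021.6, 942.9 and 1042.4 in the negative control. All 3 arrays of TF group 1 lay above the negative control, those of TF group 3 all lay below it, and TF group 2 overlapped it. The log2 changes were 0.28, -0.15 and -0.33 (SE 0.08), all under the fold threshold, and all 3 were called lower with the arrays scaled to the poly-A spikes (-0.62, -0.89 and -1.13). TF group 3 was 1.53-fold lower than TF group 1 (log2 change -0.61, limma adjusted p = 0.00134), a call that was lost without replicate 1 of TF group 3 (-0.54) and under the spike scaling (-0.51). At this probe set, as deposited, the means ran from TF group 1 through the negative control and TF group 2 down to TF group 3, with neighbours differing by less than 1.5-fold. The other Cebpd probe set had signals of 83.4 to 115.6 over all 12 arrays, did not give this order, was not called in any comparison as deposited, and had log2 changes of 0.21 and 0.07 in TF groups 1 and 2 that turned under the spike scaling, where all 3 TF groups were called lower (-0.69, -0.67 and -0.80).

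Fabp4, the fatty acid binding protein typical of fat cells and also known as aP2, fell in every TF group at its 2 brightest probe sets. At its brightest probe set the signals were 90.9, 97.7 and 110.6 in TF group 1, 70.9, 53.3 and 42.1 in TF group 2, and 36.2, 56.2 and 49 on the TF group 3 arrays, against 373, 421.1 and 364.2 in the negative control. Every TF array lay well below every negative control array. Fabp4 was 3.88-, 7.11- and 8.31-fold lower in TF groups 1, 2 and 3 (log2 changes -1.95, -2.83 and -3.06, SE 0.21, limma adjusted p = 5.38e-05, 4.15e-06 and 2.69e-06). Under the poly-A scaling these changes were -2.85, -3.57 and -3.85. The next probe set had 81.4, 70.4 and 91.8 in TF group 1, 84.8, 44.7 and 41.3 in TF group 2, and 31.8, 71.4 and 62.6 on the TF group 3 arrays, against 352.7, 144.2 and 236.2 in the negative control. It again separated all TF arrays from the negative control, with wider spread (log2 changes -1.50, -2.09 and -2.13, SE 0.41, limma adjusted p = 0.0165, 0.00269 and 0.00247). Its call in TF group 1 was lost without replicate 2 of that group (-1.41) and without replicate 1 of the negative control (-1.19).

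The remaining Fabp4 probe sets did not show this drop. One had signals of 24.3 to 74 with every TF group overlapping the negative control and log2 changes of -0.58, 0.04 and -0.27 (SE 0.35), not called as deposited. Under the spike scaling it was called lower in TF groups 1 and 3 (-1.48 and -1.06) and turned to -0.69, not called, in TF group 2, and it was also called lower in TF group 1 without replicate 2 of the negative control (-0.99). The last one stayed at or below 27 on all arrays, under the floor. Over the 12 arrays the 2 brightest Fabp4 probe sets correlated at r = 0.924, and the dim ones correlated with the brightest at 0.08 and 0.06. Which transcripts each probe set reads was not examined.

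Among the TF groups, the brightest probe set of Fabp4 fell in TF group 2 against TF group 1 (log2 change -0.87, SE 0.21, limma adjusted p = 0.0356) and in TF group 3 against the same group (-1.10, limma adjusted p = 0.00709). TF group 3 and TF group 2 overlapped and differed by -0.23 (95% interval -0.69 to 0.24). The difference of TF group 2 from TF group 1 was not called in 5 of 6 fits without an array of these groups, all but that without replicate 1 of TF group 2 (-0.69 to -0.94, limma adjusted p-values of 0.0707 to 0.118), and neither difference was called under the spike scaling (-0.71 and -0.995). At the second probe set the differences from TF group 1 were -0.58 and -0.63 and were not called. In the comparisons among TF groups, 3 of the 16 probe sets were called between TF groups 2 and 1 (1 lower, 2 higher, 18.8%, against 3.27% of all probe sets, 1.57% lower and 1.7% higher), none between TF groups 3 and 2 (against 3.58%, 1.39% lower and 2.18% higher), and 5 between TF groups 3 and 1 (4 lower, 1 higher, 31.2%, against 5.65%, 2.62% lower and 3.04% higher). The calls between TF groups 2 and 1 were at both Lpl probe sets and 1 of Fabp4. Those between TF groups 3 and 1 were at both Cebpb probe sets and 1 each of Cebpd, Fabp4 and Lpl. These shares therefore count some genes more than once. The absence of a call between TF groups 3 and 2 also held at an unadjusted p under 0.05 with the same fold and in the unmoderated linear model per probe set (0 in each).

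Lpl encodes lipoprotein lipase, which frees fatty acids from circulating triglyceride and is made by fat and by heart muscle. At its brighter probe set Lpl had signals of 297.6, 236.7 and 267.7 in TF group 1, 960.8, 883.6 and 959.9 in TF group 2, and 694.9, 636.5 and 610.3 on the TF group 3 arrays, against 256.6, 284.2 and 247.3 in the negative control. TF groups 2 and 3 formed separate bands above the other arrays, and TF group 1 overlapped the negative control. Lpl was 3.56-fold higher in TF group 2 (log2 change 1.83, SE 0.10, limma adjusted p = 5.41e-07) and 2.46-fold higher in TF group 3 (1.30, limma adjusted p = 5.12e-06; 0.51 and not called with the arrays scaled to the poly-A spikes). In TF group 1 the log2 change was 0.02 (95% interval -0.20 to 0.24), which turned to -0.88, called lower, under the spike scaling.

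The dimmer Lpl probe set gave the same order of groups. Its signals were 97.9, 76.7 and 57 in TF group 1, 197.4, 151.1 and 177.8 in TF group 2, and 133.6, 121.3 and 120.7 on the TF group 3 arrays, against 67, 41.3 and 59.1 in the negative control. The log2 changes were 0.46 (not called), 1.67 and 1.19 (SE 0.22, limma adjusted p = 0.134, 0.000221 and 0.00192). Scaled to the spikes, that of TF group 3 was 0.40 and not called and that of TF group 1 was -0.43, and without replicate 3 of TF group 1 that group was called higher (0.66). The 2 probe sets correlated at r = 0.909 over the 12 arrays.

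The differences between TF groups in Lpl do not take the negative control as their reference, although its arrays enter the variance of the fit. TF group 2 exceeded TF group 1 at both probe sets (log2 changes 1.81 and 1.21, limma adjusted p = 9.51e-06 and 0.0112), and these calls held under the spike scaling (1.97 and 1.37). In a fit of TF groups 2 and 1 alone, with fewer arrays behind the variance, not both of these Lpl calls held. TF group 3 exceeded TF group 1 at the brighter one (1.28, limma adjusted p = 5.32e-05; 1.39 under the spike scaling), while at the dimmer one the change of 0.73 did not pass (limma adjusted p = 0.062). TF group 3 lay below TF group 2 on all arrays, by -0.53 (SE 0.10, limma adjusted p = 0.00946) and -0.48, under the fold of 1.5. Lpl and Fabp4 therefore ordered the groups differently. Lpl was highest in TF group 2 and Fabp4 highest in the negative control.

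Cd36, a fatty acid translocase of fat, muscle and macrophages, was at the edge of detection. Its brightest probe set had signals of 29.3, 24.1 and 24.4 in TF group 1, 28, 26.2 and 33.9 in TF group 2, and 33.2, 42.9 and 33.9 on the TF group 3 arrays, against 33.5, 31.2 and 31.3 in the negative control. TF group 1 lay below and TF group 3 overlapped the negative control, with log2 changes of -0.31, -0.13 and 0.19 (SE 0.13), none called as deposited and all 3 called lower scaled to the spikes (-1.21, -0.87 and -0.61). The other 2 Cd36 probe sets reached at most 32 on any array. Adipoq, which encodes the hormone adiponectin of mature fat cells, had signals of 0.5 to 19.8 over the 12 arrays, below the floor in all 4 groups, so no order of its levels is given.

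The pathway around these genes was read from lists, with 1 probe set per gene, the brightest. Of the 12393 genes, 15.1%, 15.3% and 14.7% were called higher in TF groups 1, 2 and 3 than in the negative control and 8.93%, 10.1% and 9.84% lower. Of 22 measured activators of fat cell formation, 5, 2 and 5 rose and 1, 1 and 2 fell in TF groups 1, 2 and 3, but scaled to the poly-A spikes 1 rose in each and 11, 11 and 12 fell. Under that scaling 2.74%, 4.14% and 3.53% of all 12393 genes were called higher and 55.3%, 44.4% and 48.4% lower, which is the background for the spike-scaled counts of this and the other lists. Their median log2 changes as deposited were 0.20, 0.02 and 0.06, and those of all genes 0.07, 0.06 and 0.05. Ncoa1, a coactivator of nuclear receptors, was 2.16-, 2.24- and 1.98-fold higher but was no longer called under the spike scaling. Klf15, an inducer of Pparg in fat cells, lay at 36.6, 36.7 and 46.1 in TF groups 1, 2 and 3 and at 3.9 in the negative control, and was called higher in each, by at least 1.14-, 1.15- and 1.44-fold against the floor. Ppargc1b, a coactivator of mitochondrial genes, was 4-fold higher in TF group 3 (limma adjusted p = 0.0130; a log2 change of 1.21, not called, scaled to the spikes, and 2.4-fold without replicate 1 of the negative control, limma adjusted p = 0.00284). Ebf1, an early adipogenic factor, was 1.63- and 1.69-fold lower in TF groups 2 and 3, and Egr2, an early inducer of Cebpb, was 2.22-fold lower in TF group 1. The Ebf1 call in TF group 2 was lost without replicate 2 of the negative control or replicate 1 of TF group 2, and that in TF group 3 without its replicate 3. In TF group 1 the log2 change of Ebf1 was -0.51, not called as deposited or with 32 added to each signal (-0.45). It was called lower there with median centring (-0.64), quantile normalization (-0.60) and the spike scaling (-1.41). Of the 5 relatives of these receptors and C/EBP proteins with a probe set, none was called in any TF group by limma as deposited (1, 0 and 1 at an unadjusted p under 0.05 with the same fold), and 2 fell in each under the spike scaling. Rxra, the DNA binding partner of PPARγ, chosen after its values were seen, was 1.51-fold higher in TF group 1 and had log2 changes of 0.17 and 0.09 in TF groups 2 and 3 that were not called. The Rxra call in TF group 1 was lost without replicate 1 of the negative control and without replicate 1 or 2 of TF group 1. Scaled to the spikes the Rxra changes turned to -0.31, -0.57 and -0.71, of which that in TF group 3 was called lower.

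Among 16 measured repressors and inhibitors, 2 rose and 5, 5 and 4 fell (0, 1 and 0 against 11, 11 and 11 scaled to the spikes), with median log2 changes of -0.05, -0.26 and -0.16. Dlk1, the preadipocyte factor that holds precursors undifferentiated, had mean signals of 1032, 453.3 and 442.3 in TF groups 1, 2 and 3 and 1899 in the negative control, and was 1.87-, 4.28- and 4.34-fold lower. It was also lower in TF groups 2 and 3 than in TF group 1. Id2 was 2.16-, 2.38- and 2.14-fold lower and Hes1, a target of Notch, was 1.74- and 1.98-fold lower in TF groups 1 and 2. Ddit3, which encodes a C/EBP protein that blocks the others by forming dimers with them, was 2.82-, 2.62- and 2.22-fold higher, and Sox9 was 2.22-, 2.36- and 2.05-fold higher, both less so under the spike scaling, where only Ddit3 in TF group 2 was called (log2 change 0.65).

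The genes listed for fatty acid uptake and binding differed in direction among themselves. This list also counts Scarb2, whose part in fatty acid uptake was not examined. Of 17 measured besides the genes above, 6, 5 and 4 rose and 2, 3 and 2 fell in TF groups 1, 2 and 3 (1, 3 and 3 against 9, 8 and 9 scaled to the poly-A spikes), with median log2 changes of -0.08, 0.07 and 0.15. Fabp3, the form of heart and skeletal muscle, had mean signals of 2736, 2362 and 1441 in TF groups 1, 2 and 3 and 210.1 in the negative control, 13-, 11.2- and 6.86-fold higher, and stayed higher in all 3 under every scaling tried. Fabp5, the epidermal form, had mean signals of 1858, 1803 and 2497 in TF groups 1, 2 and 3 and 8391 in the negative control, 4.52-, 4.66- and 3.37-fold lower. Fabp7, the brain form, was 3.26-, 1.93- and 1.73-fold lower. Fabp4 thus fell together with Fabp5 and Fabp7 while Fabp3 rose. Slc27a1, a fatty acid transporter of muscle and fat, was 2.23-, 2.42- and 5.16-fold higher (called in TF group 3 but not in TF groups 1 and 2 under the spike scaling). Angptl4, a secreted inhibitor of lipoprotein lipase and a known target of PPARs, was 2.11-, 4.6- and 3.64-fold higher (not called in TF group 1 under that scaling), and it was also higher in TF groups 2 and 3 than in TF group 1, as Lpl was at its brighter probe set.

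**Figure D3:**
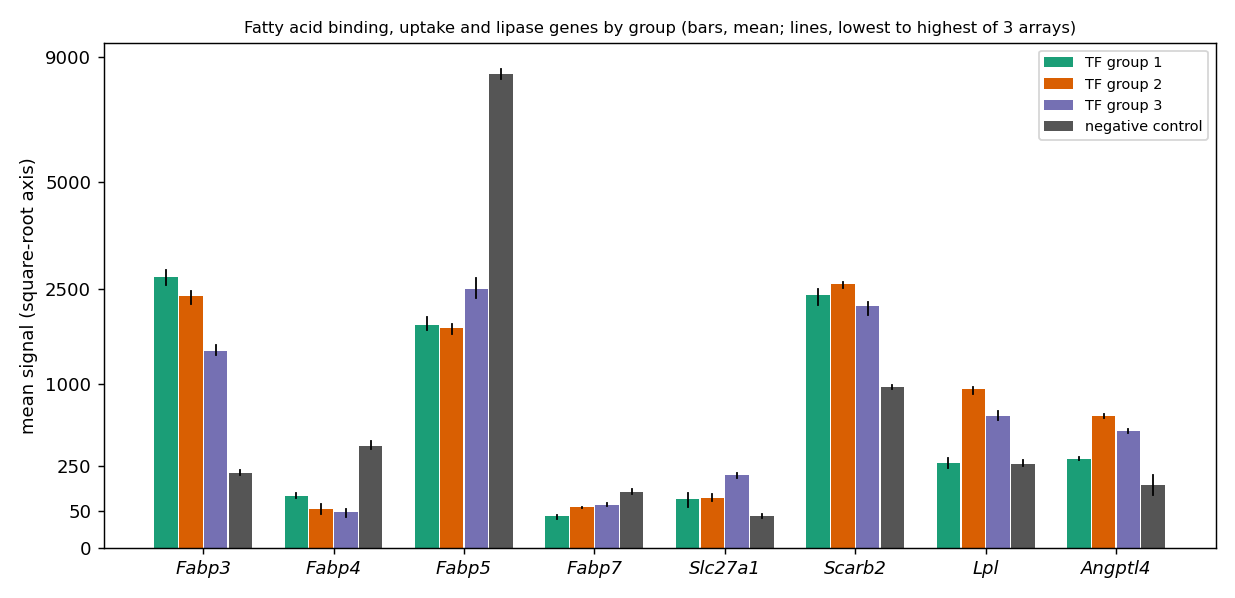
Mean signal (bars, square-root axis from 0; lines, lowest to highest of the 3 arrays) of 8 genes (Fabp4, Lpl and others from the list of fatty acid uptake and binding) in TF groups 1, 2 and 3 and the negative control, at the brightest probe set of each gene. Fabp4, Fabp5 and Fabp7 lie highest in the negative control, Fabp3, Slc27a1, Scarb2 and Angptl4 lie lowest there, and Lpl lies above the negative control in TF groups 2 and 3.

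Genes of lipid droplets, lipolysis and fatty acid synthesis were counted next. Of 19 genes of lipid droplets and triglyceride turnover, 8, 6 and 4 rose and 1, 0 and 1 fell, but scaled to the spikes 1 rose in each and 3, 4 and 3 fell (medians as deposited 0.60, 0.33 and 0.37). Lpin1, a phosphatidate phosphatase, was 4.28-, 4.77- and 4.45-fold higher and was the 1 gene still higher under that scaling. Pnpla2, the lipase that starts triglyceride breakdown, was 1.96-, 2.36- and 2.27-fold higher, and its activator Abhd5 1.99-, 1.98- and 1.84-fold, neither called under the spike scaling. Bscl2, which encodes seipin, rose 2- and 2.26-fold in TF groups 1 and 2, again not under that scaling. Of 13 genes of fatty acid synthesis and desaturation, 1, 1 and 0 rose and 4, 6 and 5 fell, and 10, 8 and 9 fell with none higher under the spike scaling (medians as deposited -0.56, -0.66 and -0.45). Fasn, the fatty acid synthase, was 1.88-, 1.74- and 1.71-fold lower, and Fads1, Fads2 and Elovl6 fell in each TF group. Elovl6 in TF group 1 was 1.52-fold lower and lost its call with 32 added to each signal, without replicate 3 of the negative control or without replicate 2 of TF group 1. Scd1, a desaturase, rose 1.86- and 2.21-fold in TF groups 1 and 2 but was not called under the spike scaling, where that of TF group 1 was -0.01 on the log2 scale.

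Of 12 measured adipokines and adiponectin receptors, 3, 2 and 4 rose and 0, 1 and 1 fell (2, 0 and 1 against 4, 5 and 4 scaled to the spikes), with median log2 changes of 0.02, -0.08 and 0.17. Rarres2, the precursor of chemerin, exceeded the negative control 5.91-fold in TF group 3, where it also lay above TF groups 2 and 1. Rbp4, the carrier of retinol, rose 3.09- and 1.99-fold in TF groups 1 and 3 (in TF group 3 not called under the spike scaling). Of 10 genes of preadipocytes and mesenchymal progenitors, 4, 4 and 2 rose and 1, 2 and 2 fell (2, 2 and 1 against 4, 3 and 2 scaled to the spikes), with medians of 0.74, 0.81 and 0.43. Icam1 was 5.62-, 6.06- and 3.6-fold higher and Cd34 4.18- and 2.94-fold higher in TF groups 1 and 2. Ccn5 fell most in this list and was 2.73- and 3.63-fold lower in TF groups 2 and 3. Pdgfra, the receptor that marks many fat progenitors and fibroblasts, had mean signals of 1800, 909.3 and 690.9 in TF groups 1, 2 and 3 and 1693 in the negative control, and was 1.86- and 2.44-fold lower in TF groups 2 and 3. In TF group 1 its log2 change was 0.09, which turned to -0.81, called lower, under the spike scaling. Of 5 complement genes, the pathway to which adipsin belongs, 1, 1 and 2 rose and none fell (1, 1 and 1 against 2, 0 and 1 scaled to the spikes, median 0.48, 0.37 and 0.50 as deposited). Those that rose were Cd55 (3.65-, 3.13- and 2.42-fold) and, in TF group 3, Cd59a (3.36-fold). Cfb, Cfp and Cfi were not called in any TF group as deposited, so these counts do not show a rise of the pathway as a whole. Among 7 genes of brown fat, 0, 0 and 1 rose and 0, 1 and 0 fell (0, 0 and 1 against 3, 3 and 3 scaled, median -0.37, -0.15 and -0.04).

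Markers of cell types that can express the genes examined were read on the same arrays. Of 6 measured markers of mature fat cells, 4 (Adipoq, Cidec, Lep and Retn) had mean signals below 32 in all 4 groups, and the summed signal of the 6 was 70 to 153 on the TF arrays and 100 to 130 on the negative control arrays. The 1 call, Cidec lower in TF group 3, lay wholly below the floor and was lost without any 1 of the 6 arrays. All 13 fibroblast markers were above the floor in at least 1 group, with 2, 1 and 0 higher and 1, 3 and 4 lower (none higher and 9, 10 and 12 lower scaled to the spikes), and summed signals of 94033 to 101176, 75707 to 78131 and 76500 to 77847 in TF groups 1, 2 and 3 and 83419 to 87661 in the negative control. Of 10 cardiac and striated muscle markers, 5, 6 and 7 rose and none fell (3, 5 and 7 against 1, 1 and 0 scaled to the spikes), and their summed signal was 5189 to 5515, 6913 to 7393 and 14542 to 15677 in TF groups 1, 2 and 3 and 525 to 605 in the negative control. Macrophage markers summed to 498 to 542, 623 to 661 and 615 to 663 in TF groups 1, 2 and 3 and 637 to 708 in the negative control, with 1 of 13 lower in each TF group (9, 6 and 7 scaled to the spikes) and the group means of C1qa, C1qc, Fcgr1 and Mrc1 below the floor. The lower ones as deposited were Tyrobp in TF group 1, at least 1.01-fold against the floor, and Lyz2 in TF groups 2 and 3. Lyz2 was at least 3.07-fold lower in TF group 2 and 2.83-fold lower in TF group 3. The Tyrobp call was lost without replicate 1 or 3 of the negative control or replicate 1 or 2 of TF group 1. That of Lyz2 in TF group 3 was lost without any 1 negative control array and without replicate 1 or 3 of TF group 3. Csf1r, a receptor of macrophages, chosen after its values were seen, had mean signals of 164, 266.3 and 198.9 in TF groups 1, 2 and 3 and 183.9 in the negative control, and was called higher in TF group 2 against TF group 1 (log2 change 0.71, limma adjusted p = 0.0108). It was the 1 marker of the 13 called between these groups, and none was with the mean of a gene's probe sets. Endothelial markers summed to 377 to 496 on TF arrays and 329 to 407 on negative control arrays, with 2, 0 and 1 of 10 higher and none lower (none higher and 3, 1 and 4 lower scaled to the spikes), and Pecam1, Tie1 and Vwf below the floor. The call of Tek in TF group 1 was lost without replicate 1 or 2 of the negative control or any 1 array of TF group 1. Its negative control mean lay below the floor. Esam in TF group 3 lost its call without replicate 1 or 3 of the negative control or replicate 2 of TF group 3. The part of other cell types in the changes of Fabp4, Pparg and Lpl was not tested.

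For Pparg, Cebpb, Cebpd, Fabp4 and Lpl, the genes with the most similar log2 signals over the 12 arrays were picked by Pearson's r. The other examined genes lay below the floor on average or did not pass the moderated F test, and were left out. The 6004 candidates had a mean signal of at least 32 and an adjusted p under 0.05 in that test. Both sides were thus chosen for differing among the groups, and r is a description that includes these differences and the shared scaling. Fabp4 was closest to Dek (0.985), a chromatin protein, and to Osr1 and Slc1a6 (0.983 each). Lpl was closest to Blnk (0.994), Adamts15 (0.989) and F13a1 (0.985), and Blnk and F13a1 are both known from blood cells. Blnk had mean signals of 33.73, 205.2 and 131.9 in TF groups 1, 2 and 3 and 32.78 in the negative control, and F13a1 had 28.67, 3488 and 1459 in the TF groups and 15.22 in the negative control. Cebpb was closest to Atf5 (0.939), another bZIP factor, and to Anxa4 (0.931) and Ctsc (0.927). Cebpd was closest to Ctdsp1 (0.963), Psme1 (0.962) and Gas2 (0.956), and Pparg to Mak16 (0.939), Ndufaf4 (0.918) and Gemin7 (0.912).

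**Figure D4:**
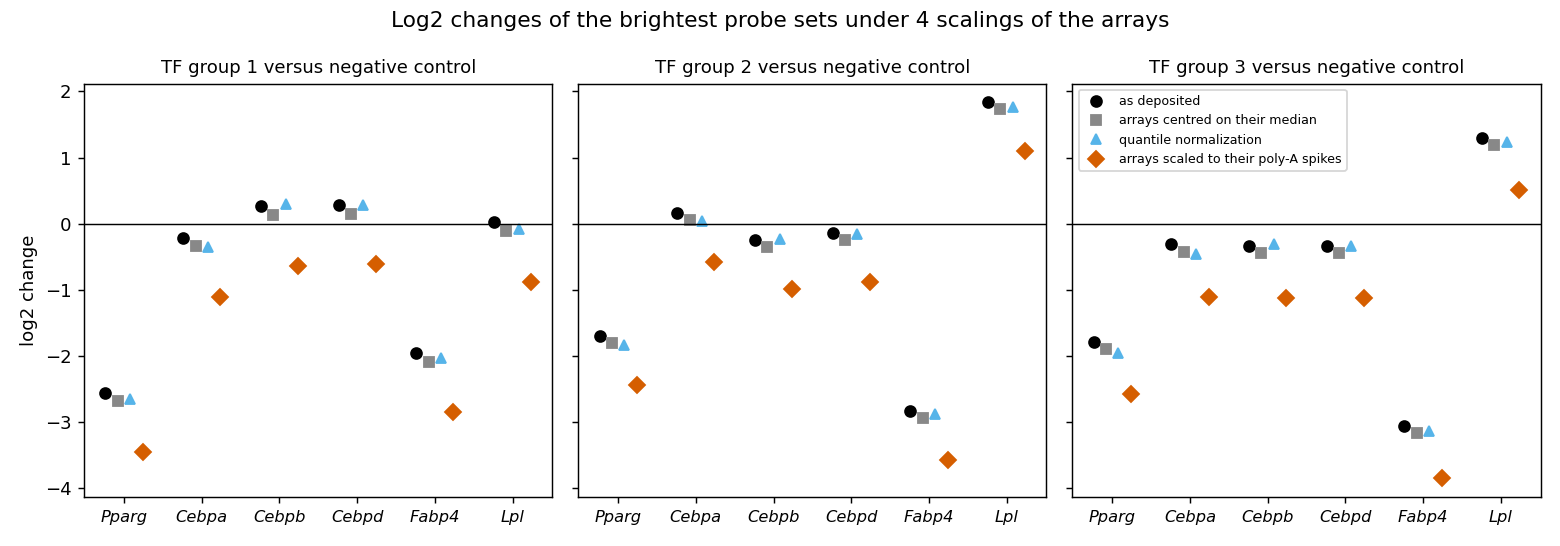
Log2 change against the negative control in TF groups 1, 2 and 3 (panels) at the brightest probe set of 6 genes, under 4 scalings of the arrays (symbols). Pparg and Fabp4 lie below 0 under each scaling in all panels, and Lpl lies above 0 under each in TF groups 2 and 3. The values scaled to the poly-A spikes lie lower throughout, moving Cebpb, Cebpd and Lpl in TF group 1 and Cebpa in TF group 2 below 0.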

How the data were processed

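RNA of 12 MEF cultures, 3 in each of 4 groups, was amplified and read on a mouse array whose probes lie near the 3′ end of transcripts. The deposited intensity values are linear, with 22690 probe sets on every array. The submitters' processing notes and the methods name RMA and Partek without versions, and RMA gives log2 values, whereas the signal deposited by the authors is linear, falls below 1 for some probe sets and has 1 trimmed mean on every array, so the step that made it is not known.

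The signals were taken to log2 in R 4.3.3 without further scaling, although a log2 table had been assumed when the tests were set down. The 64 control probe sets were left out of the tests. Of the 22626 others, 20380 had 1 gene symbol in the platform annotation, 691 several and 1555 none, and symbols were checked by gene ID against RefSeq (20351 matched). The limma package 3.58.1 (lmFit and eBayes) fitted 1 mean per group over all 12 arrays and gave moderated tests with Benjamini-Hochberg adjustment over all probe sets of a comparison. Where the lower group of a called probe set had a mean signal below 32, the fold is given against 32. Promoter windows came from RefSeq (GRCm38.p6), and 5 of the 8 measured genes had 1 or more. The step that calls probe sets was tested on simulated data.

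All probe sets of the 8 genes are named. From each list, called genes were named from the 4 per direction with the largest change, but not all of these are given. Rxra and Csf1r were named outside this rule. The 3 genes most like a member by Pearson's r are named for members that passed the floor and the moderated F test. The genes and lists were chosen with earlier results of these data known. The lists were adipogenic activators, repressors and inhibitors, relatives of C/EBP and PPAR, lipid droplet and triglyceride turnover, fatty acid uptake and binding, fatty acid synthesis, adipokines and their receptors, complement, brown fat, preadipocytes, and markers of fibroblasts, endothelium, macrophages, cardiac and striated muscle and mature fat cells. The alternatives were other scalings (median centring, quantile normalization, poly-A spikes), 32 added to each signal, a filter on dim probe sets, an intensity trend, an unmoderated linear model per probe set, an unadjusted p, the mean of a gene's probe sets in list counts, only the 2 groups compared, a replicate block, and fits without 1 array. The number of arrays limits the precision.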

Additional observations from a re-analysis of the deposited data

Results flagged for a closer look

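Control signals outside the tested probe sets differed between the groups. The 24 poly-A spike probe sets had a mean log2 signal that was 0.81 higher over the 9 TF arrays together than over the 3 arrays of the negative control, and the 3 probe sets for 18S rRNA one that was 1.19 higher. Both differences had a two-sided exact permutation p over arrays of 0.00455, and no split of the 220 can give a smaller one. The 18S signals were 12.36 to 12.58, 12.10 to 12.26 and 12.27 to 12.47 on the log2 scale in TF groups 1, 2 and 3 and 11.03 to 11.32 in the negative control. The signal of Fabp4 at its brightest probe set and that of Pparg lay lower on the same 9 arrays, and the part of these controls in the changes was not tested.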

How the results depend on the processing

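Of 349 values recomputed for 44 single changes under the alternatives other than the poly-A scaling and the left-out arrays, 346 kept their call or lack of one, as did 239 of 264 with an array left out and 19 of 44 under the poly-A scaling; among these, 8, 9 and 4 uncalled changes turned in sign. With arrays scaled to the poly-A spikes, 10 probe sets were called in each of TF groups 1, 2 and 3 against the negative control (56.9%, 47.8% and 50.6% of all probe sets) and 2 in TF group 3 against TF group 1 (2.4% of all), and the 18S difference was 0.38. The log2 changes that turned and were called were those of Cebpb (-0.64 in TF group 1, and -0.68 in TF group 2 at its dimmer probe set), Cebpd (-0.62 in TF group 1, and -0.69 and -0.67 in TF groups 1 and 2 at its dimmer probe set), Lpl (-0.88 in TF group 1) and Cd36 (-0.61 in TF group 3); by construction this scaling lowers all changes against the negative control. With the mean of a gene's probe sets in place of the brightest, 3 activators of fat cell formation were called lower and 1 adipokine gene higher in TF group 2 against the negative control, 2 macrophage markers lower and 1 endothelial marker higher in TF group 1, and no other list count against the negative control moved by over 1.5 times. Fitting only TF groups 2 and 1 left 1 call between them, with fewer arrays behind the variance. With 1 array left out, 2 to 4 probe sets were called in TF group 1, 4 or 5 in TF group 2 and 4 or 5 in TF group 3 against the negative control, 2 or 3 in TF group 2 against TF group 1, and 3 to 6 in TF group 3 against TF group 1 (3 without replicate 3 of TF group 3 or of TF group 1). Deviations of same-numbered arrays correlated at r = -0.02 to 0.05, and 6 of 12 arrays correlated best with their own number, so the numbers were not taken as pairs. With a replicate block, the calls were 3, 5 and 5 against the negative control, 2 for TF group 2 and 6 for TF group 3 against TF group 1, and the change of Fabp4 in TF group 2 against TF group 1 lost its call (limma adjusted p = 0.0763). Signals near 32 limit what can be said of Pparg in the TF groups and of Cd36 and Adipoq in all groups.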
